A study of Mus musculus with 2 samples.

Results

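Peaks of chromatin immunoprecipitation with sequencing (ChIP-seq) from Pax7-YFP knock-in mice were examined around 9 genes of the Wnt pathway in mouse muscle stem cells. The genes were the receptor genes Lrp6, Fzd2 and Fzd7, the beta-catenin gene Ctnnb1, the inhibitor genes Dkk2 and Axin2, and the ligand genes Wnt7a, Wnt4 and Rspo1. A peak belonged to a gene when its summit lay inside the gene or within 100 kb of its span in GRCm38. By this rule 9 of the 2977 peaks of the deposited list were taken. They stood at 7 of the 9 genes, beside 31.6% of all protein-coding genes under the same rule, and Fzd7 and Rspo1 had none. The 9 genes were listed with earlier results of these data known, so this count is a description. Of 80 other Wnt pathway genes, 26 (32.5%) had a peak by this rule.

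The cells were untreated muscle stem cells sorted by flow cytometry from C57BL/6 mice of the genotype Pax7-YFP KI, in which yellow fluorescent protein is knocked in at Pax7. The ChIP library was made with an antibody against green fluorescent protein (10622111 tags after filtering), and its control was input DNA of cells of the same genotype (20429667 tags). There was 1 library of each kind, so no value has a replicate. The only test between the libraries was the peak caller's, at each peak. The knock-in was carried by both libraries, ChIP from cells without YFP was not analysed here, and the files hold no expression values against which the identity of the cells could be checked. The labels used here do not state whether YFP is fused to PAX7, so a fold is enrichment with the antibody against GFP, and that it reflects PAX7 binding was not tested.

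Wnt proteins are secreted lipid-modified signals. They bind Frizzled receptors together with the co-receptors LRP5 or LRP6, which stops the breakdown of beta-catenin and lets it act with TCF/LEF factors on transcription. In skeletal muscle the pathway is known for its part in stem cell activation, self-renewal and differentiation. PAX7, a transcription factor with a paired domain and a homeodomain, is their defining marker.

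The peaks with a promoter sequence to show were those at Ctnnb1, at Gpatch8 (the second peak of Fzd2) and at Chchd4 (the peak of Wnt7a). Prickle1, a planar cell polarity gene of the wider pathway, is shown beside them because a peak lay within its promoter window too. Each sequence is RefSeq's window of 300 bases from 250 before to 50 after an annotated gene start, GRCm38.p6, read 5′ to 3′ on the strand of the gene. Capitals mark the bases that lie inside the deposited peak. The windows are chr9:120933150-120933449 on the plus strand for Ctnnb1, chr11:102556109-102556408 on the minus strand for Gpatch8, chr6:91473374-91473673 on the minus strand for Chchd4 and chr15:93595853-93596152 on the minus strand for Prickle1. A second start window of Ctnnb1 held all 197 bases of its peak and is not shown. The start window of Tmem43, on the plus strand, held 126 bases of the Chchd4 peak and is not shown either. The table holds no window for Lrp6 or Fzd2.
Ctnnb1: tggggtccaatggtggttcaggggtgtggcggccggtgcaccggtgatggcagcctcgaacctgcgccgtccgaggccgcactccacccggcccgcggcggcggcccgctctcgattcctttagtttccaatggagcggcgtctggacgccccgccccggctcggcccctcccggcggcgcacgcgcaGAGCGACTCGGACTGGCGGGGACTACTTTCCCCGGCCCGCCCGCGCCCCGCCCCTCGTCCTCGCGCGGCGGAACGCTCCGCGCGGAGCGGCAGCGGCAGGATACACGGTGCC
Gpatch8: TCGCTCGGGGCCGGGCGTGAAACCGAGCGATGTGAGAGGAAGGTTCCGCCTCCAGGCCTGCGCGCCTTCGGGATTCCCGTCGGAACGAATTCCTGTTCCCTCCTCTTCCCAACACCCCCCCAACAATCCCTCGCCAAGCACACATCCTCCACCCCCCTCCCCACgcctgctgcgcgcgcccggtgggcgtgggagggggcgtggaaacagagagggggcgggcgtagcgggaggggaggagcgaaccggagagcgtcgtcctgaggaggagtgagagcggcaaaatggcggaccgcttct
Chchd4: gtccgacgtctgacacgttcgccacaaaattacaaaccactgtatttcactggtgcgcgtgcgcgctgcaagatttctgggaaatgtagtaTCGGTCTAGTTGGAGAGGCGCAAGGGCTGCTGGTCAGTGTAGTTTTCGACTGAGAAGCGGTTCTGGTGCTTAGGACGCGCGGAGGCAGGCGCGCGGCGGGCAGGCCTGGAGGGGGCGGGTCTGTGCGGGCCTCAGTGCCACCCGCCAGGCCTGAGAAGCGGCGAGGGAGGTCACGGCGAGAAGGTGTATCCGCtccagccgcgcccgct
Prickle1: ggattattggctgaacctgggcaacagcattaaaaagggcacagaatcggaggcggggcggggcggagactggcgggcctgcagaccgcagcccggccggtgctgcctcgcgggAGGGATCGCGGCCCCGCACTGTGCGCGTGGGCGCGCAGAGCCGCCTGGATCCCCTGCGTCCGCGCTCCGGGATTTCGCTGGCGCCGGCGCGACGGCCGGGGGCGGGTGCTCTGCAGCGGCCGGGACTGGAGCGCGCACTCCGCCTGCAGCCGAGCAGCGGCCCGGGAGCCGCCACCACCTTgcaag

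In the Ctnnb1 window 112 bases lay inside the peak, and a further 85 bases of the peak ran past its end into the gene. The peaks at Chchd4 (193 bases) and Prickle1 (181 bases) fell wholly inside their windows, and the Gpatch8 window held 164 bases of its peak. All 4 windows were rich in G and C, with 75.3% at Ctnnb1, 68.0% at Gpatch8, 63.0% at Chchd4 and 74.0% at Prickle1, against a median of 52.7% over all 32851 promoter windows. The CG dinucleotide occurred 46 times at Ctnnb1, 31 times at Gpatch8, 30 times at Chchd4 and 39 times at Prickle1, against a median of 7. High GC was not confined to these windows, though windows with and without a peak were not compared over the whole set. Start windows of members without a peak there held 57.7% (Dkk2) to 84.3% G and C (Wnt4, with 51 CG), and the Prickle2 window, of which a peak covered 3 bases, held 50.3% and 7 CG.

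Short motifs were searched on both strands in these windows. The motif bound by pairs of homeodomains, TAAT and ATTA with any 2 bases between them, occurred in 0.39% of all windows and in none of these windows. The homeodomain core TAAT, which also lies within that longer motif, occurred in 58.0% of all windows. It was present at Chchd4 and Prickle1, outside the peak bases, and absent at Ctnnb1 and Gpatch8. GTCACG, a core of paired domain sites, was found in 8.22% of all windows and among the 4 at Chchd4 only, inside the peak. The E-box CANNTG (72.3% of all windows), the AP-1 motif TGANTCA (7.81%) and the TCF/LEF core CTTTGA (16.0%) had no match in any of the 4. The start windows of the members without a peak there (Wnt4, Wnt7a, Rspo1, Fzd7, Dkk2 and Axin2) held none of the 6 motifs, except for 1 E-box at Wnt4 and 1 at Wnt7a. The Prickle2 and Tmem43 windows, which a peak also overlapped, held 4 and 1 TAAT, outside the peak bases. Prickle2 also held 1 E-box outside them. The shares over all windows were not matched for G and C content, so presence or absence of a motif was not set against windows of like composition.

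Around the receptor genes, Lrp6 and Fzd2 had peaks and Fzd7 had none. Lrp6, the co-receptor, lies at chromosome 6, 134446476 to 134566913. Its peak at 134582130 to 134582390 stood outside the gene, 15329 bp beyond its high-coordinate end, and Lrp6 was the nearest protein-coding gene. The ChIP pileup, the number of fragments over the summit, was 16 against a local input background of 0.977, and the deposited fold enrichment was 8.60 (95% Poisson interval of the pileup 5.13 to 13.6, counting error only). Of all peaks, 26.1% had a higher fold. The next gene, Mansc1, was 27.0 kb from the summit.

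Fzd2, a Frizzled receptor gene at chromosome 11, 102604431 to 102608058, had a peak at one end of its span and another far from it. The promoter table does not hold Fzd2, so which end is its start was not determined here. The peak at 102604144 to 102604469 reached over the low-coordinate end of the gene, with its summit 122 bp outside it. Its pileup was 15 against a background of 0.977, a fold of 8.09 (4.75 to 13.0). The other peak, at 102556245 to 102556448, was 48.1 kb from Fzd2 and stood inside Gpatch8, 206 bp upstream of an annotated Gpatch8 start. It held 17 fragments over a background of 0.977, a fold of 9.10 (5.51 to 14.3). The intervals of both peaks overlap over most of their length, so their order by fold is not resolved.

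Fzd7 encodes the Frizzled receptor that has been described as the receptor for Wnt7a on muscle stem cells. The gene lies at chromosome 1, 59482147 to 59486955, and the nearest summit was 244.7 kb away. Of all protein-coding genes on chromosomes with a peak, 47.2% were farther than that from a summit. Its absence from the list concerns called peaks: the lowest pileup in the list was 9 fragments, and weaker enrichment at Fzd7 would not have been listed.

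**Figure D1:**
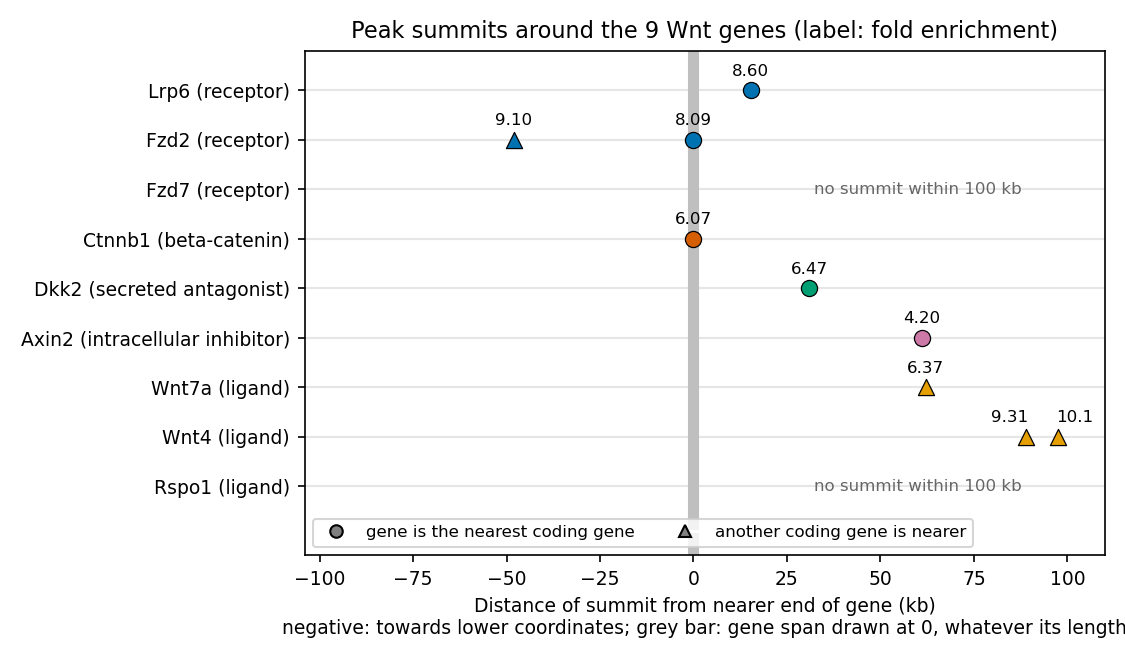
Distance of each peak summit from the nearer end of the gene (kb, horizontal) for the 9 genes (vertical); circles are peaks whose nearest protein-coding gene is the named gene, triangles peaks with another gene nearer, and the number is the fold enrichment. Summits at Ctnnb1 (17 bp) and Fzd2 (122 bp) lie at the gene, those of Wnt7a and Wnt4 at 62.1 to 97.4 kb.

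Ctnnb1, which encodes beta-catenin, was the only member with a summit within 1000 bp of an annotated start, among the 7 members whose starts are annotated in the promoter table. Of the 17491 protein-coding genes with such a start, 4.89% had one. Fzd2 was not among the 7. Counted from either end of the gene span, whatever the strand, 2 members (Ctnnb1 and Fzd2) had a summit within 1000 bp, beside 4.59% of all protein-coding genes. Ctnnb1 lies at chromosome 9, 120933400 to 120960507, and its peak at 120933338 to 120933534 covered the start, with the summit 17 bp upstream of it. An alternative annotated start lay 195 bp downstream of the summit. The pileup was 11 against a background of 0.977, a fold of 6.07 (3.28 to 10.5), and 77.1% of all peaks had a higher fold. Among the 9 peaks only that of Axin2 had a lower fold. The nearest other gene, Ulk4, was 31.1 kb away.

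Dkk2 encodes a secreted antagonist that binds LRP5 and LRP6. The gene lies at chromosome 3, 132085266 to 132180304, and its peak at 132211244 to 132211457 was 31.0 kb downstream of its end and 126.0 kb from its start. The pileup was 13 against a background of 1.16, a fold of 6.47 (3.66 to 10.7). No other protein-coding gene lay within 100 kb of this summit, and the next one, Gimd1, was 418.5 kb away. Of the 9 peaks, those at Dkk2 and Axin2 were alone in having the member as the only protein-coding gene within 100 kb.

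Axin2, a scaffold of the beta-catenin destruction complex and a feedback inhibitor of the pathway, had a peak unlike the others. The gene lies at chromosome 11, 108917828 to 108950783, and the peak at 109011603 to 109012000 was 61.0 kb downstream of its end, inside the long noncoding RNA gene Gm36876. Its pileup of 84 fragments stood against a local background of 19.2 (37.0 before the input was scaled), a fold of 4.20 (3.36 to 5.19). Only 15 peaks of the list had a higher pileup, 18 had a higher background, and 33 had a lower fold. Among the members it had the highest −log10 q, where q is the caller's adjusted p-value (22.20, against 5.28 to 14.19 for the other 8 peaks) and the lowest fold. In the whole list 25 peaks (0.84%) had a background of 10 or more, with a median fold of 2.59. The part of this background in the call was not tested. Without these peaks 6 members had a peak in place of 7.

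**Figure D2:**
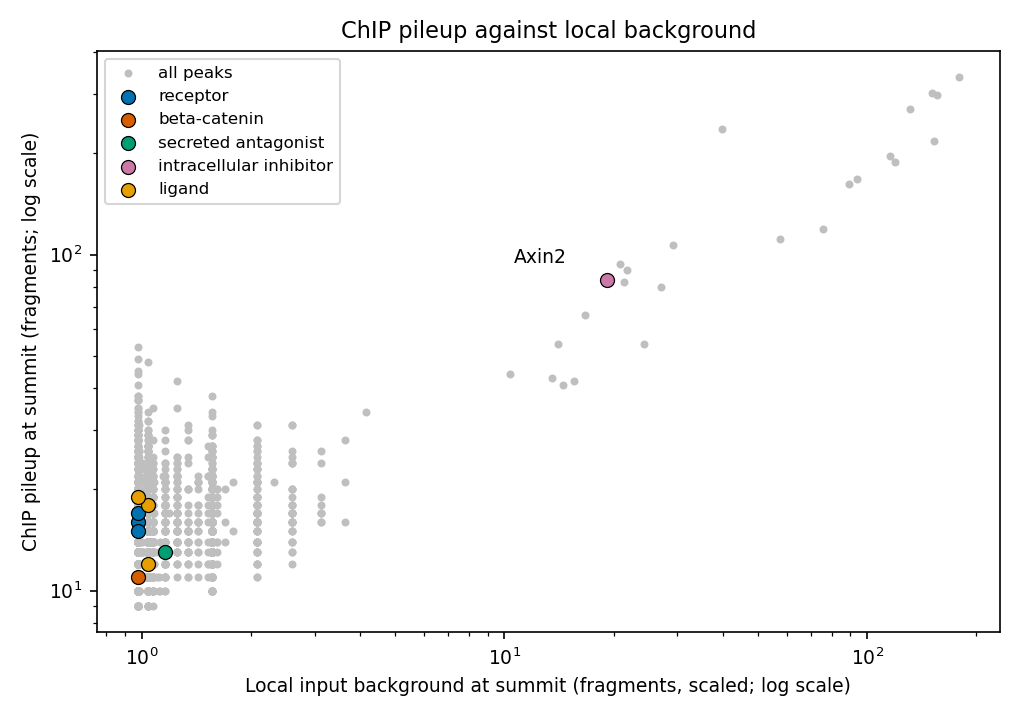
ChIP pileup at the summit (fragments, log scale, vertical) against the scaled local input background (fragments, log scale, horizontal) for all 2977 peaks (grey) and the 9 peaks around the Wnt genes (coloured by role). The Axin2 peak, at 84 fragments over a background of 19.2, sits among the few peaks of high background, and the other 8 at 11 to 19 fragments over 0.977 to 1.16.

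Around the ligand genes every peak was nearer to another gene. Among all 89 Wnt pathway genes counted below, the gene was the nearest in only 12 of 44 pairs of gene and peak. Wnt7a, a ligand known to drive symmetric expansion of muscle stem cells, lies at chromosome 6, 91363981 to 91411353. The peak within its window, at 91473390 to 91473582, was 62.1 kb upstream of its start and 48 bp upstream of the start of Chchd4, a gene of mitochondrial protein import. Tmem43 was 236 bp from the summit and Xpc 15.8 kb, so that Wnt7a was only the fifth protein-coding gene by distance. The pileup was 12 against 1.04, a fold of 6.37 (3.53 to 10.8).

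Wnt4, a ligand gene at chromosome 4, 137277635 to 137299501, had peaks at 137388364 to 137388577 and 137396802 to 137397086. Their summits were 89.0 and 97.4 kb downstream of the end of the gene and 8452 bp apart. The pileups were 18 against a background of 1.04 and 19 against 0.977, and the folds 9.31 (5.72 to 14.4) and 10.1 (6.29 to 15.5), the highest of the members. Of all peaks, 18.5% and 12.6% had higher folds. Cela3a, an elastase gene, was nearest at 13.1 and 4.6 kb, and Cdc42, which encodes a small GTPase, was 30.7 and 39.2 kb away. For both summits Wnt4 was the last by distance of the 6 protein-coding genes within 100 kb, and the nearer peak lay inside the long noncoding RNA gene Gm52681.

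Rspo1 encodes R-spondin 1, which strengthens Wnt signalling through LGR receptors. The gene lies at chromosome 4, 124986401 to 125009102, and the nearest summit was 1037.9 kb away. Of all protein-coding genes on chromosomes with a peak, 14.8% were farther from one. At the limit of 100 kb, the farthest peak taken in was that of Wnt4 at 97.4 kb with 10.1-fold, and the nearest one left out was 102.2 kb from Lrp6 with 17 fragments and 7.03-fold.

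Set side by side, the 9 peaks covered folds of 4.20 to 10.1. Their median was 8.09, against 7.35 for all 2977 peaks (quartiles 6.27 and 8.82), and 5 of them were above that median. The background was at its floor of 0.977 fragments, the genome-wide mean, at 5 of the 9 peaks and at 44.1% of all peaks, so that the fold there follows from the pileup alone. Among the 36 pairs of the 9 peaks, the intervals of 3 pairs did not overlap. Each of these 3 paired the Axin2 peak with one of higher fold, that of Fzd2 at 48.1 kb or one of the Wnt4 peaks. All intervals of the remaining 8 peaks overlapped, so their order by fold was not resolved at this depth. The intervals hold the background constant and leave out its own counting error. The Axin2 background rested on 37.0 input fragments before scaling, so whether these 3 pairs differ was not settled either. How often such pairs occur among all peaks was not counted. The deposited fold adds 1 to pileup and background. With 5 added instead, the fold of Axin2 (3.67) was close to the highest folds of Fzd2 (3.68) and Wnt4 (4.02).

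**Figure D3:**
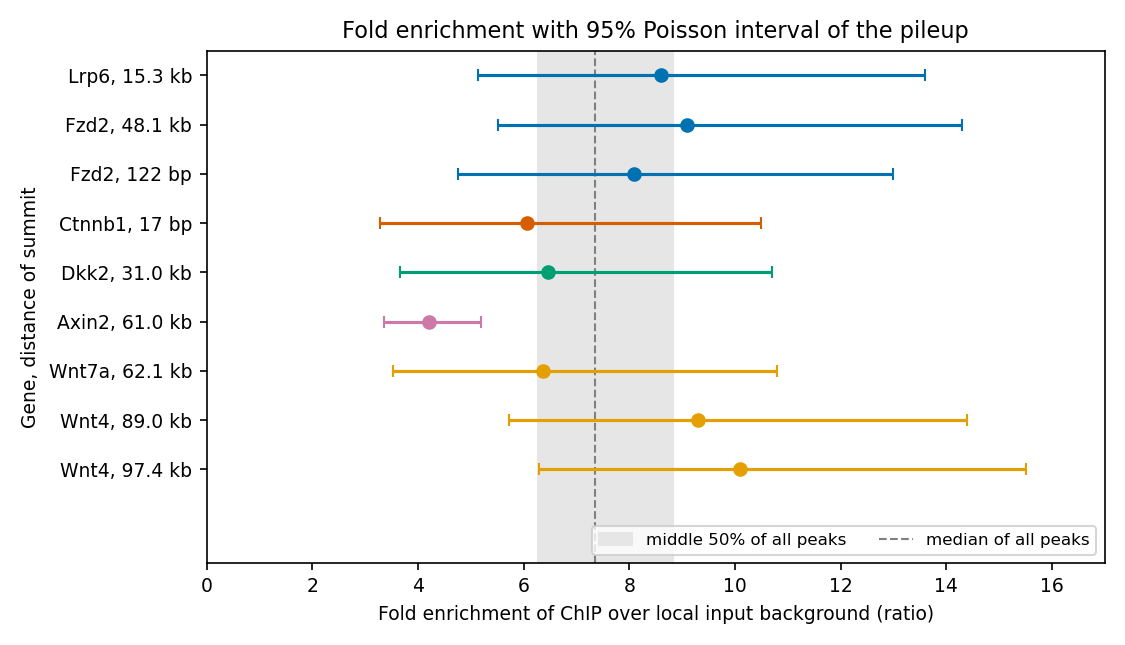
Fold enrichment (ratio, horizontal) of the 9 peaks with the 95% Poisson interval of the pileup, labelled by gene and distance of the summit; the band spans the quartiles of all 2977 peaks (6.27 to 8.82) and the dashed line is their median (7.35). Only the Axin2 interval (3.36 to 5.19) lies wholly below the band.

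The 7 of 9 genes with a peak within 100 kb stood beside 31.6% of all 21770 protein-coding genes with one under the same rule. Within 50 kb it was 4 members (Lrp6, Fzd2, Dkk2 and Ctnnb1) beside 21.5% of all genes, and within 10 kb it was 2 members (Fzd2 and Ctnnb1) beside 10.9%. No summit lay inside a member, beside 5.49% of all genes. At 5 of the 9 peaks the member was the nearest protein-coding gene, one peak each for Lrp6, Fzd2, Ctnnb1, Dkk2 and Axin2. Counted by gene and at any distance, 5 of the 9 members were the nearest protein-coding gene of a peak. That was so for 7 of the 80 other Wnt pathway genes (8.75%) and for 10.3% of all protein-coding genes. Since the members were listed with earlier results of these data known, their counts are a description.

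The wider pathway was counted from a list drawn up by role. In this list of 89 Wnt pathway genes in 7 roles, 33 (37.1%) had a summit within 100 kb, against 31.6% of all protein-coding genes. Without the 9 members it was 26 of 80 (32.5%). Within 50 kb the 89 genes had 18 (20.2% against 21.5%), within 10 kb 8 (8.99% against 10.9%) and inside the gene 5 (5.62% against 5.49%). The shares were close to those of all genes at each window, so they are no result about the pathway. The highest fold per gene had a median of 7.81 in the 33 genes, against 7.59 in all genes with a peak. Under the same rule 16 of 29 Notch pathway genes (55.2%) and 10 of 36 TGF-beta and BMP genes (27.8%) had a summit within 100 kb. The window is measured from the gene span, so a longer gene takes in more sequence. Median spans were 32.0 kb for the Wnt list, 35.1 kb for Notch and 43.4 kb for TGF-beta and BMP, against 17.2 kb for all protein-coding genes. Differences between the lists were not tested, nor was the part of gene length in them.

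**Figure D4:**
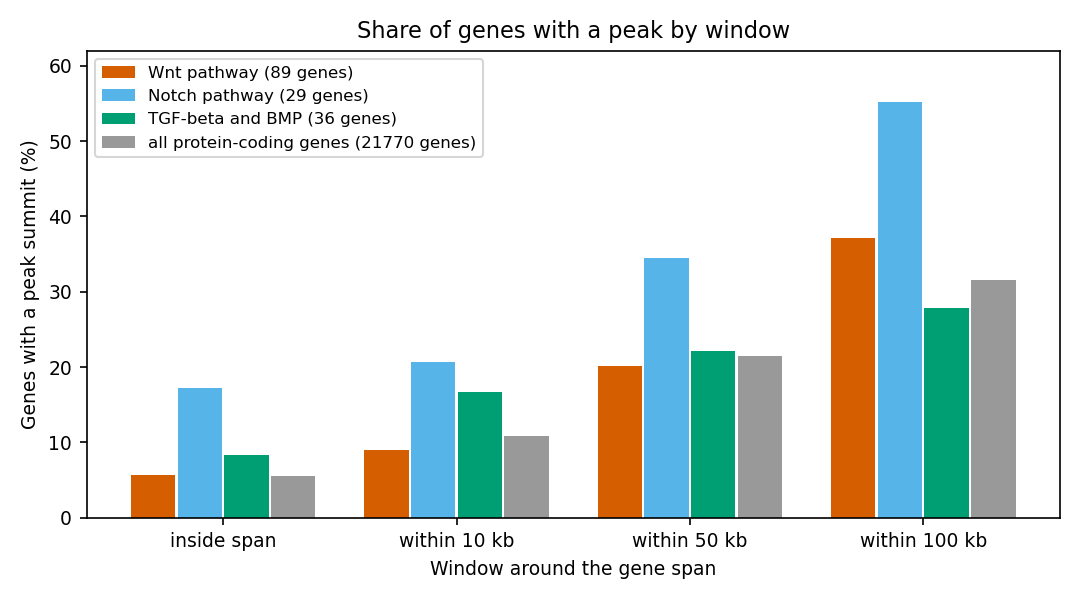
Share of genes with a peak summit (percent, vertical) inside the gene span and within 10, 50 and 100 kb of it, for 89 Wnt pathway genes, 29 Notch genes, 36 TGF-beta and BMP genes and all 21770 protein-coding genes. The Wnt bars stand at 5.62, 8.99, 20.2 and 37.1%, beside 5.49, 10.9, 21.5 and 31.6% for all genes.

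Receptors and co-receptors had summits within 100 kb at 6 of 15 genes (40.0%, against 31.6% of all protein-coding genes). Ror1, a receptor tyrosine kinase of Wnt5a signalling, had the peak with the highest fold of the pathway list, inside the gene, at chromosome 4, 100401515 to 100402118, where 27 ChIP fragments stood over a background of 1.04, 13.7-fold (9.21 to 19.7). A second peak inside Ror1, at 100351930 to 100352161, held 19 fragments and reached 10.1-fold (6.29 to 15.5). Fzd9 came within the window with a peak of 7.35-fold at 99.8 kb, which was nearest to Tbl2. Lrp5, the partner co-receptor of Lrp6, had peaks of 7.06-fold at 65.2 kb and 6.07-fold at 21.7 kb, both nearer to another gene.

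Among the 19 Wnt ligand genes, 4 had a summit within 100 kb (21.1%, against 31.6% of all protein-coding genes). None was the nearest protein-coding gene of any peak, beside 10.3% of all genes, a difference that was not tested in so few genes. Besides Wnt4 and Wnt7a these were Wnt8b at 41.2 kb with 6.86-fold, where Ndufb8 was nearest, and Wnt2 at 92.1 kb with 5.08-fold, where the summit lay inside St7. Of the R-spondins and their receptors 3 of 9 genes had a peak (33.3%, against 31.6% of all). Lgr6, an R-spondin receptor gene, had 4 within 100 kb, with folds from 5.55 to 9.61, all nearer to another gene. Lgr5 had a peak of 8.33-fold at 72.1 kb, where the summit lay inside Thap2. Znrf3, which encodes a ubiquitin ligase that removes Wnt receptors from the cell surface, had a peak of 7.08-fold (4.01 to 11.8) with its summit 206 bp outside the gene.

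Secreted antagonists and their partners had peaks at 5 of 15 genes (33.3%, against 31.6% of all). Kremen1, a co-receptor of the Dickkopf proteins, had a peak inside the gene of 19 fragments and 7.81-fold (4.86 to 12.0), which also lay 31.9 kb from Znrf3 and was counted for both. Sost and Sfrp4 had peaks of 7.84-fold at 17.8 and 75.2 kb, and Notum, which encodes a deacylase of Wnt proteins, one of 7.35-fold at 10.1 kb, each nearer to another gene. Dkk1, Dkk3 and Dkk4 had none.

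Of the Dishevelled, destruction complex and feedback genes 7 of 13 had a peak (53.8%, against 31.6% of all, a difference that was not tested), of which Axin2 and Apc were the nearest gene. Within 50 kb it was 2 of 13 (15.4%, against 21.5% of all). The Apc peak, inside the gene, was among the weakest of the list, at 9 fragments and 5.06-fold (2.59 to 9.15). Ctnnbip1, an inhibitor of the binding of beta-catenin to TCF, had a peak of 11.8-fold (7.64 to 17.4) at 72.7 kb, nearest to Rbp7. Apc2 had 9.38-fold at 69.4 kb and Dvl1 8.82-fold at 15.9 kb. Gsk3a and Gsk3b had none.

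Beta-catenin and its nuclear partners had peaks at 5 of 9 genes (55.6%, against 31.6% of all, likewise not tested), and Ctnnb1 alone was the nearest gene of one. Within 50 kb it was 2 of 9 genes (22.2%, against 21.5% of all). Pygo2 had 9.58-fold at 73.2 kb, Bcl9l 8.44-fold at 87.2 kb and Tcf7l1 8.33-fold at 73.7 kb. Of the other TCF/LEF genes, Tcf7, Tcf7l2 and Lef1 had no summit within 100 kb. Planar cell polarity and secretion genes had 3 of 9 (33.3%, against 31.6% of all). The Prickle1 peak, 6.58-fold (3.64 to 11.1), had its summit 20 bp upstream of an annotated start, as the Ctnnb1 peak did at 17 bp. Prickle2 had one of 6.05-fold (3.27 to 10.4) inside the gene, 169 bp downstream of a start, and Porcn, which encodes the enzyme that attaches the lipid to Wnt proteins, had one of 10.1-fold at 46.2 kb, nearest to Ftsj1.

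**Figure D5:**
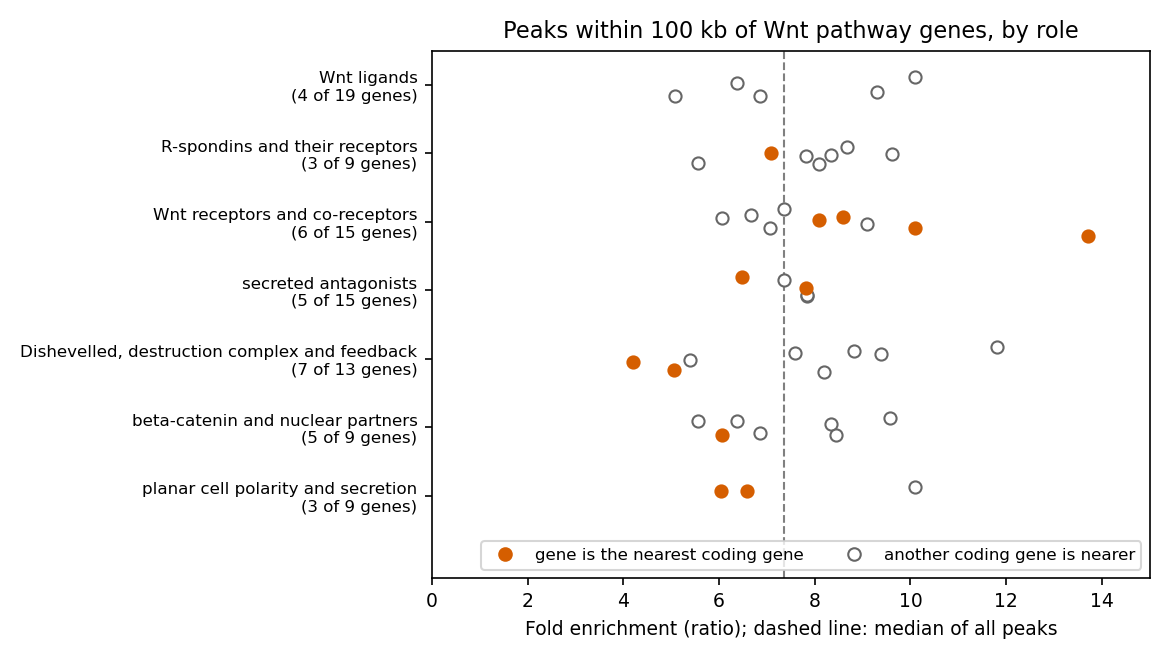
Fold enrichment (ratio, horizontal) of each peak within 100 kb of a Wnt pathway gene, by role (vertical, with the number of genes that have a peak); filled points are peaks whose nearest protein-coding gene is the named gene, open points have another gene nearer. The 5 points of the ligands are all open, and the highest fold is that of Ror1 at 13.7.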

How the data were processed

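Peaks were called with MACS 2.1.1.20160309 on the ChIP library against the input, 1 library each with no pooling, at a q-value limit of 0.01, a fragment length of 172 bp and an effective genome size of 1.87e+09, per the file headers. The submitters' processing notes name GRCm38, bcl2fastq 2.16, HISAT2 2.10 and MACS2 2.1.1. The deposited pileup is a signal, the ChIP fragments over the summit, unscaled. The deposited fold is the ratio (pileup + 1) over (local background + 1), with the input scaled by 0.520 to the ChIP depth. The deposited −log10 p and −log10 q values are the caller's, from a Poisson model. Coordinates count from 1.

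The local background was solved from the deposited pileup and fold. Intervals of a fold are 95% and exact Poisson, taken on the pileup at a constant background. Gene spans were those of the RefSeq table (GRCm38.p6), without the 348 genes on scaffolds or patches, which left 21770 protein-coding genes. That table gives neither exons nor UTRs, so peaks were placed by gene span only. Starts, strand and promoter sequences came from RefSeq's promoter table, which holds 7 of the 9 members. The window rule was checked on simulated peaks. Python 3.11.15, pandas 2.3.3 and SciPy 1.17.1 were used.

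The members and lists were chosen with earlier results of these data known. Named are all 9 members, pathway genes with a peak inside, and up to 3 more per role by fold. Lrp5, Wnt2 and the genes without a peak were named after their values were seen. Beyond the caller's Poisson model, no test between groups was possible with 1 library each.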

Additional observations from a re-analysis of the deposited data

How the results depend on the processing

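No paired analysis was possible because each group holds 1 library, and none could be left out. The number of members with a peak was 4 within 50 kb, 2 within 10 kb, 0 inside the gene and 4 when only the more significant peaks were kept (−log10 q no lower than the median, 8.40), against 7 in the rule used. The number of peaks was 5 within 50 kb, 2 within 10 kb and 0 inside, against 9. Of the 89 pathway genes 18, 8 and 5 had a peak at these windows and 20 at the stricter q, against 33. At the stricter q 18.5% of all protein-coding genes had a peak. These counts fall by construction, since fewer positions or peaks are counted. Any overlap in place of the summit gave the same counts. Leaving out the top 1% of peaks by pileup, and, chosen after seeing the data, without peaks at a background of 10 or more, Axin2 dropped out (6 members, 8 peaks, 32 pathway genes). Taking all annotated genes as neighbours raised the peaks nearer to another gene to 5 in place of 4.

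The size of a fold depends on the pseudocount. With 0 in place of 1 the highest folds were 16.4 at Lrp6, 17.4 at Fzd2, 11.2 at Dkk2, 11.3 at Ctnnb1, 11.5 at Wnt7a and 19.4 at Wnt4. With 5 they were 3.51 at Lrp6, 3.68 at Fzd2, 2.92 at Dkk2, 2.68 at Ctnnb1, 2.81 at Wnt7a and 4.02 at Wnt4. Axin2 moved least (4.37 and 3.67), and with a pseudocount of 5 its fold was no longer the lowest. No member had a fold for peaks inside the gene, and Wnt7a, Wnt4 and Axin2 had none within 50 kb. Pileups of 11 to 19 fragments at 8 of the 9 peaks limit the precision of every fold.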
